A study of Rattus norvegicus with 8 samples.

Results

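Complement C1q and the genes that mark resident macrophages were examined in the adrenal glands of neonatal rats after a week of low oxygen. The set held 10 genes, namely the C1q chain genes C1qa, C1qb and C1qc, and Cd68, Cd163, Csf1r, Ptprc, Tyrobp, Fcgr2b and Cd74. A gene was represented by every probe set whose only symbol in the platform annotation was that gene. This gave 10 of the 15866 probe sets on the array that were not array controls, for 9 of the 10 genes, with 2 probe sets for Ptprc and 1 for each other gene. No probe set was named for Cd163, and it is not analysed here. After probe sets of low signal were set aside, 7 of the 10 were tested among 11106.

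The hypoxic pups had been kept with their dams in 12% O2 from birth to postnatal day 7, and the normoxic pups with dams in room air, fed ad libitum. Each condition had 4 samples. A sample was made of 24 pooled glands, stripped of their capsule, and was read on its own 1-colour oligonucleotide array. Neither the sex of the pups nor the spread of litters over the pools is given in the sources used here, so p-values measure the spread between these pools. Each pool mixes all the cells of its glands, and in such samples fewer macrophages and less RNA per macrophage cannot be told apart. Each value is the intensity of a probe set, in arbitrary units, scaled by the authors to a common mean on each array, and the array medians lay between 228.2 and 248.7. The level of 1 probe set cannot be set against that of another.

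C1q is the recognition part of the first component of complement. It is built from A, B and C chains, each with a collagen-like stem and a globular head that binds immune complexes and dying cells, and in most tissues it is made by macrophages rather than by the liver. The adrenal cortex holds resident macrophages along its capillaries, close to the steroid-making cells. They depend on the receptor encoded by Csf1r, and they signal through receptors for antibody and for other ligands, several of which need the adaptor encoded by Tyrobp. Some members are also used by other cells: Ptprc encodes CD45, carried by nearly all leukocytes, Fcgr2b an inhibitory antibody receptor shared with B cells, and Cd74 the invariant chain used by every cell that presents antigen on class II molecules.

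The samples carried the markers of the gland named in the labels. Star and Cyp11a1, which serve steroid synthesis, had at least 9377.9 and 14860.1 in every pool, and Th and Chga of the chromaffin cells at least 6420.4 and 5988.6. Background was read from control probe sets for bacterial transcripts, which had values up to 83.5, and 95% of them lay under 46.7.

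In the RefSeq annotation of rat assembly GRCr8 the C1q chain genes lie side by side in the order C1qb, C1qc, C1qa, with 0 other annotated genes between them. Promoter windows, from 250 bases before to 50 after the start of the gene, were at hand for 7 of the 10 genes. Those of C1qa, C1qb and Cd68 are shown because these genes shared a pattern over the hypoxic pools described further on. C1qc shared that pattern too, but no window was at hand for it. The C1qa window is chr5:154419884-154420183, that of C1qb chr5:154407778-154408077 and that of Cd68 chr10:54882392-54882691, all on the minus strand of GRCr8 and written from 5′ to 3′ on that strand. Capitals mark GGAAGT, read as ACTTCC on the other strand, a form of the site of the ETS factors to which the macrophage regulator PU.1 belongs.
C1qa: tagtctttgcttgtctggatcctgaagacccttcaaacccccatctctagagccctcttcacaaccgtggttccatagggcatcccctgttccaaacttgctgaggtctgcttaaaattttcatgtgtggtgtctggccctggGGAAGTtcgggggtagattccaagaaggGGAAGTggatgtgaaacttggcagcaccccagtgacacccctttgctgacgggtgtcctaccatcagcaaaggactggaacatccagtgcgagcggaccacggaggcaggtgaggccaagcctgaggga
C1qb: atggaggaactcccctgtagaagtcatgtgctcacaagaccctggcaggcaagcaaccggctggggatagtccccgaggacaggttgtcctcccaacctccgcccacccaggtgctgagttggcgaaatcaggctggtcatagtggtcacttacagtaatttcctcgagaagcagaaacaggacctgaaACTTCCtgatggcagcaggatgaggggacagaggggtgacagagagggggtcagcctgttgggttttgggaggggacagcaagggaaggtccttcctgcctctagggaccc
Cd68: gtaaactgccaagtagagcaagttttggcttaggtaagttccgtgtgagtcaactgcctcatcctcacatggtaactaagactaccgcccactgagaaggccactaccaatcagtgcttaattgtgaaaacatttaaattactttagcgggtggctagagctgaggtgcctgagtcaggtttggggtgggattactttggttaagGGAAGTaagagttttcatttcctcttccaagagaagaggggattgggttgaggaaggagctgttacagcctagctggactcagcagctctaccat
GGAAGT was chosen after these windows had been read. C1qa held 2 matches, beginning at positions -107 and -79 from the start of the gene, C1qb held 1 match at position -61, and Cd68 held 1 match at position -45. Over both strands 4 of the 7 member windows held GGAAGT, with Ptprc as the other, against 22.6% of 33469 windows of the same length, and the windows of Cd163, Csf1r and Cd74 held 0. The shorter core GGAA, which lies inside GGAAGT, occurred in 95.8% of all windows and in 7 of 7 member windows, so its presence sets none of them apart. A match of letters is not evidence of binding.

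The first question was whether the C1q chains differed between hypoxic and normoxic glands. Their signals averaged lower in the hypoxic pools with differences of -25.1% for C1qa, -23.3% for C1qb and -20.8% for C1qc on the fitted scale, although 0 of them passed the test adjusted over all probe sets. C1qa (probe set 1376652_at), which encodes the A chain, had intensities of 390.0, 328.6, 403.3 and 442.2 in hypoxic pools 1 to 4, against 484.9, 515.9, 608.6 and 497.4 in normoxic pools 1 to 4. The 4 hypoxic values all lay below the 4 normoxic values, and normoxic pool 3 was the highest. The means were 391 ± 47.1 in hypoxic and 526.7 ± 56.1 in normoxic pools (SD, n = 4 each). The log2 difference came to -0.42, with a standard error of 0.12 and a 95% interval from -0.68 to -0.15. In limma this gave an unadjusted p of 0.00513 and an adjusted p of 0.304, the 186th lowest p of 11106 probe sets.

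C1qc (1373025_at), which encodes the C chain, had 308.3, 316.5, 355.8 and 400.7 in the hypoxic pools, against 415.5, 502.1, 421.6 and 417.5 in the normoxic pools. Here too the groups did not overlap, though hypoxic pool 4 lay close under the lowest normoxic pools, and normoxic pool 2 lay far above the other normoxic pools. The means were 345.3 ± 42.3 in hypoxic and 439.2 ± 42.03 in normoxic pools, a log2 difference of -0.34 (SE 0.12, interval -0.60 to -0.07, limma unadjusted p = 0.0170, adjusted p = 0.438). C1qb (1370215_at), which encodes the B chain, had 216.3, 224.2, 262.8 and 288.2 in the hypoxic pools, against 389.1, 279.4, 362.9 and 285.5 in the normoxic pools. These groups overlapped, since hypoxic pool 4 stood above normoxic pools 2 and 4. The means were 247.9 ± 33.7 in hypoxic and 329.2 ± 55.1 in normoxic pools, a log2 difference of -0.38 (SE 0.15, interval -0.70 to -0.06, limma unadjusted p = 0.0232, adjusted p = 0.487).

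The 3 chain genes thus made up all of the tested members with an unadjusted p under 0.05 in limma, 3 of 7, each lower in hypoxic glands, where 4.48% of all tested probe sets were lower and 4.16% higher at that level. Groups that did not overlap, with hypoxic values lower, were seen for 2 of 7 members and for 2.64% of all tested probe sets, and with hypoxic values higher for 0 of 7 members and 2.76% of probe sets. Of all 11106 probe sets, 2.89% had a difference as low as that of C1qa or lower, 3.73% as low as that of C1qb and 5.26% as low as that of C1qc. At an adjusted p of 0.05 in limma, 0 of 7 members passed, against 20 of all tested probe sets (0.18%). These shares are a description, since the members were chosen with earlier results of these data known. The 3 chain genes also moved together over the hypoxic pools, so they do not count as 3 separate results.

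**Figure D1:**
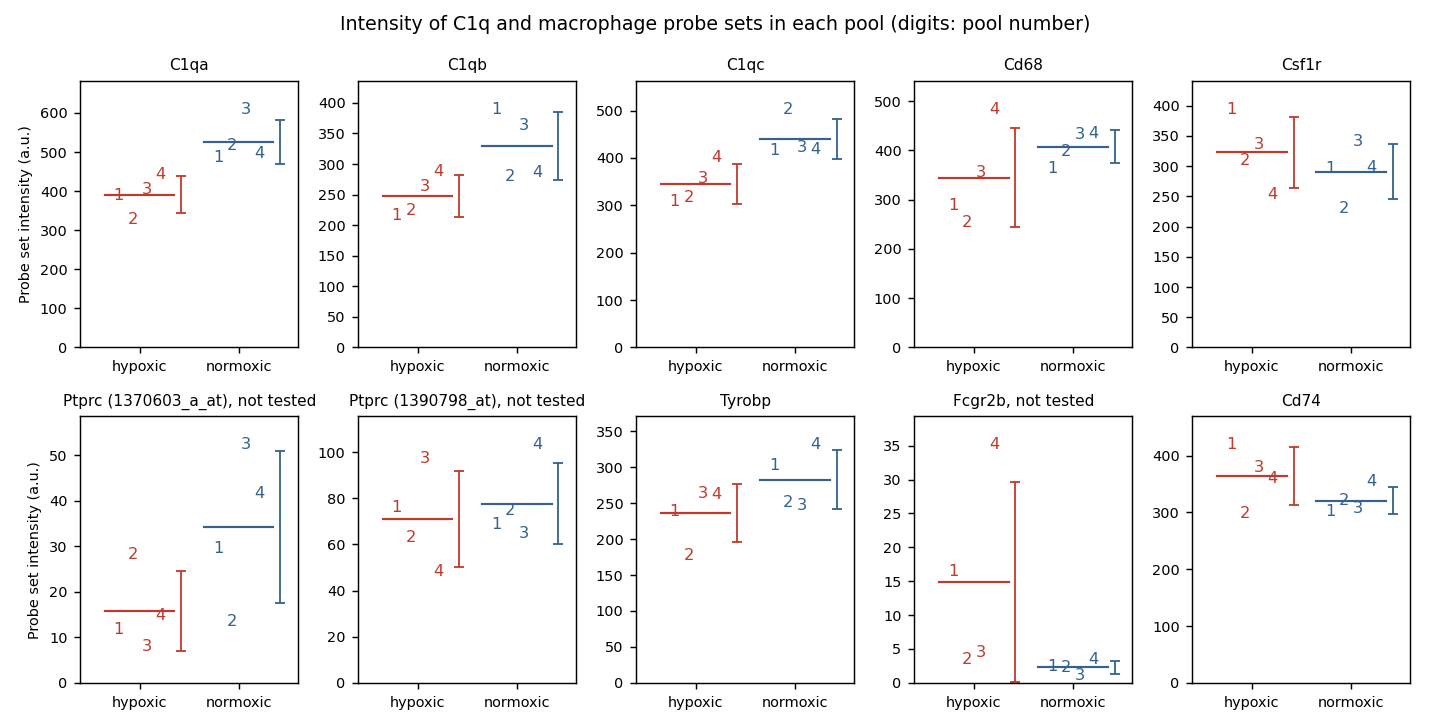
Intensity in arbitrary units (vertical axes, from 0) of each C1q and macrophage probe set in the hypoxic pools (left, red digits) and normoxic pools (right, blue digits). Digits are pool numbers, lines are group means and bars are SDs over 4 pools. For C1qa and C1qc the hypoxic pools all sit below the normoxic pools, while the Csf1r and Cd74 groups overlap.

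Of the other tested members, Cd68 and Tyrobp averaged lower in hypoxic glands and Csf1r and Cd74 higher, and 0 of these 4 had an unadjusted p under 0.05 in limma. Cd68 (1375010_at), which encodes a glycoprotein of the macrophage lysosome, had 287.9, 253.5, 354.2 and 482.6 in the hypoxic pools, against 364.0, 396.9, 433.0 and 434.5 in the normoxic pools. Hypoxic pools 1, 2 and 3 were below every normoxic pool and hypoxic pool 4 was above every one. The means were 344.6 ± 101.1 in hypoxic and 407.1 ± 33.6 in normoxic pools, a log2 difference of -0.27 with an interval from -0.65 to 0.11 (limma adjusted p = 0.711). Tyrobp (1374730_at), whose product DAP12 passes on signals from activating receptors, had 238.8, 177.7, 263.9 and 262.5 in the hypoxic pools, against 302.3, 251.2, 246.8 and 330.9 in the normoxic pools. The groups overlapped, with hypoxic pool 2 the lowest of all, and the log2 difference was -0.25 (interval -0.59 to 0.09, limma adjusted p = 0.701).

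Csf1r (1388784_at), which encodes the receptor for the macrophage growth factors CSF1 and IL-34, had 393.6, 308.6, 336.2 and 252.9 in the hypoxic pools, against 295.4, 229.5, 340.9 and 298.5 in the normoxic pools. The groups overlapped over most of their range. The log2 difference was 0.14, with an interval from -0.21 to 0.48 that leaves room for a fall or a rise (limma adjusted p = 0.859). Cd74 (1367679_at) had 418.6, 297.3, 379.2 and 359.6 in the hypoxic pools, against 302.1, 320.1, 306.5 and 353.8 in the normoxic pools. Hypoxic pools 1, 3 and 4 lay above every normoxic pool and hypoxic pool 2 below every one, and the log2 difference was 0.17 (interval -0.11 to 0.44, limma adjusted p = 0.770). Whether the differences of Csf1r and Cd74 departed from those of the C1q chains was not tested. In all 5 of the 7 tested members were lower in hypoxic glands, beside 54.8% of all tested probe sets.

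**Figure D2:**
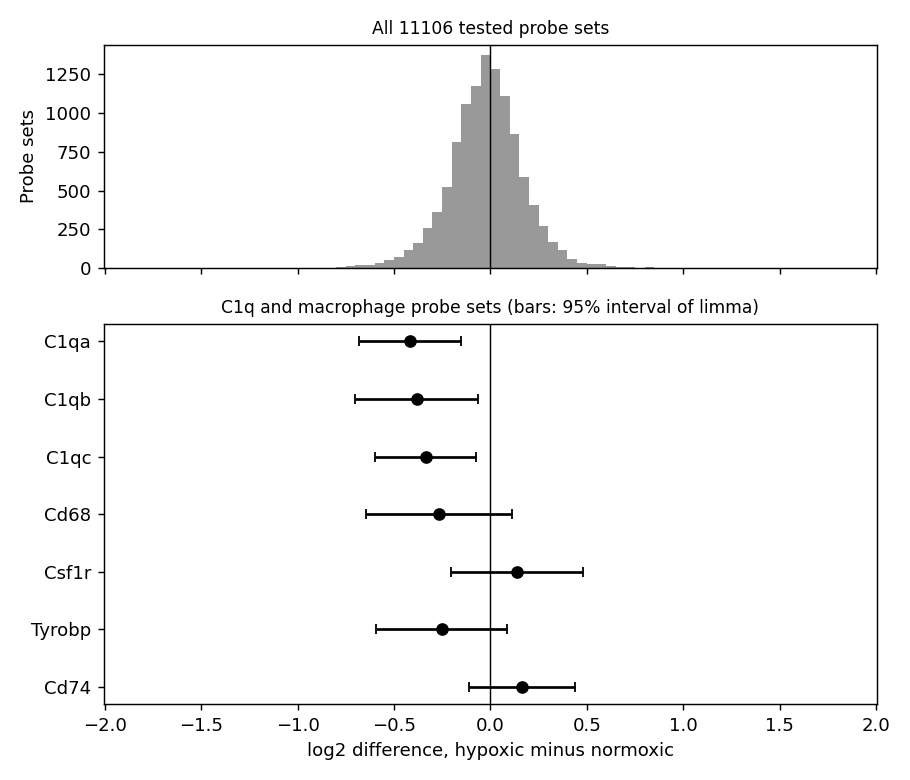
Upper panel: number of probe sets (vertical axis) by log2 difference, hypoxic minus normoxic (horizontal axis), over all 11106 tested probe sets. Lower panel: the difference of each tested C1q and macrophage probe set with its 95% limma interval, on the same horizontal axis. The intervals of C1qa, C1qb and C1qc lie below 0, and those of Cd68, Csf1r, Tyrobp and Cd74 cross it.

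The remaining probe sets were too dim to be tested. Fcgr2b (1371079_at) had 16.5, 3.5, 4.5 and 35.1 in the hypoxic pools, against 2.4, 2.3, 1.1 and 3.4 in the normoxic pools. All of these values lie within the range of the bacterial controls, so although the hypoxic pools were each above the normoxic pools, they give no level of the transcript. Ptprc had 11.8, 28.2, 8.1 and 14.9 in the hypoxic pools at 1370603_a_at, against 29.5, 13.4, 52.3 and 41.6 in the normoxic pools, again within the controls' range. At 1390798_at it had 76.1, 63.0, 97.2 and 48.2 in the hypoxic pools, against 68.6, 74.5, 64.7 and 103.1 in the normoxic pools. Only some of these values exceeded the highest control, and the groups overlapped. CD45-bearing cells as a whole could therefore not be compared through Ptprc on this array.

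Within the hypoxic group the C1q chains and Cd68 followed a shared order over pools. Hypoxic pool 4 was the highest for C1qa, C1qb, C1qc and Cd68, pool 3 was next for each of them, and pools 1 and 2 were the lowest. Over 8011 named genes pool 4 was the highest hypoxic pool for 24.0%. The other tested members did not share this order: pool 3 was the highest for Tyrobp, and pool 1 for Cd74 and Csf1r, with pool 4 the lowest for Csf1r. Among the 22 other macrophage and myeloid markers tested, pool 4 was the highest hypoxic pool for 8 (36.4%). In the normoxic group the chains shared no such order, since pool 3 was the highest for C1qa, pool 1 for C1qb and pool 2 for C1qc. Pool 4 was the highest normoxic pool for 3 of 7 tested members and for 12 of the 22 other markers (54.5%). Over all named genes that share was 17%, so an uneven share for 1 pool was not particular to the hypoxic group.

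Hypoxic pool 4 was the highest for all 4 genes, so leaving it out was bound to move their differences further below 0. The log2 difference without it was -0.48 for C1qa, -0.45 for C1qb, -0.41 for C1qc and -0.44 for Cd68. The limma unadjusted p of Cd68 was 0.0101 there (adjusted p = 0.499), against 0.149 with all pools. That fit was singled out by these same values, so its p is a description only. Over the 8 fits that each left out 1 pool, C1qa ran from -0.48 to -0.34, C1qb from -0.45 to -0.30 and C1qc from -0.41 to -0.27. The unadjusted p of C1qa was at most 0.01999 in these fits. That of C1qb was above 0.05 without hypoxic pool 1 (0.0601) or 2 (0.0608) or normoxic pool 1 (0.0756) or 3 (0.0642), and that of C1qc without normoxic pool 2 (0.0586). Cd68 came to -0.14 without hypoxic pool 2, and Tyrobp to -0.13 without the same pool.

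**Figure D3:**
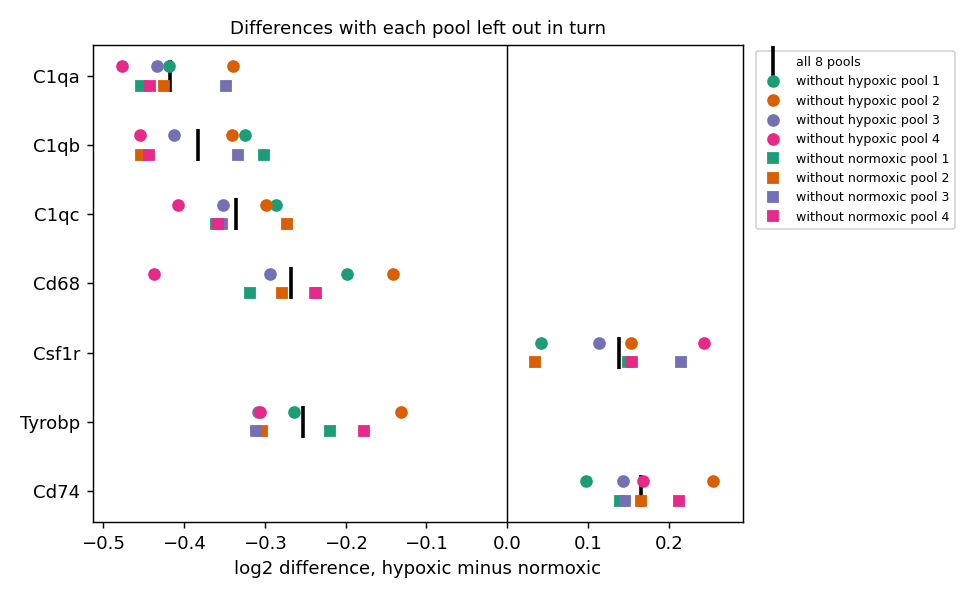
Log2 difference, hypoxic minus normoxic (horizontal axis), for each tested C1q and macrophage gene (vertical axis) with all 8 pools (black bar) and with 1 hypoxic (circles) or 1 normoxic pool (squares) left out. The C1q chains stay between -0.48 and -0.27, and Csf1r comes as close to 0 as 0.03.

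A wider list of macrophage and myeloid markers was read beside the members, with other cell types and the rest of complement. Of 22 further macrophage and myeloid genes tested, 14 were lower in hypoxic glands and 8 higher, beside 52.5% of named genes lower. Their median log2 difference was -0.08, and that of all named genes -0.01. At an adjusted p of 0.05 in limma 0 of them passed, and 1 was lower and 1 higher at an unadjusted p under 0.05, where 4.09% of named genes were lower and 4.47% higher. Lyve1, a hyaluronan receptor of lymphatic vessels and of some resident macrophages, was the higher one, with 463.7, 447.5, 593.5 and 390.8 in hypoxic pools, against 364.8, 357.4, 390.5 and 322.5 in normoxic pools. Its groups met without overlap, with hypoxic pool 4 only just above normoxic pool 3, and the log2 difference was 0.37 (limma adjusted p = 0.432). Cd48, an adhesion ligand of leukocytes, averaged 1143 ± 259 in hypoxic and 1434 ± 142 in normoxic pools, a log2 difference of -0.35 (adjusted p = 0.547).

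The lipopolysaccharide co-receptor gene Cd14 averaged 302.9 ± 29.3 in hypoxic and 365.4 ± 49.2 in normoxic pools, a log2 difference of -0.25. Gpnmb, a glycoprotein of lysosome-rich macrophages, had 1274.1, 1031.5, 1139.3 and 2108.3 in hypoxic pools, against 1466.9, 1660.8, 1827.5 and 1975.7 in normoxic pools, a log2 difference of -0.37. Its hypoxic pool 4 stood above all the others, as for Cd68. Leaving that pool out was therefore bound to lower the difference, which became -0.58. The summed intensity of the 37 probe sets of the list ran from 11211.2 to 13203.1 in hypoxic and from 12083.1 to 14560.5 in normoxic pools, and 0 of its values were 0.

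**Figure D4:**
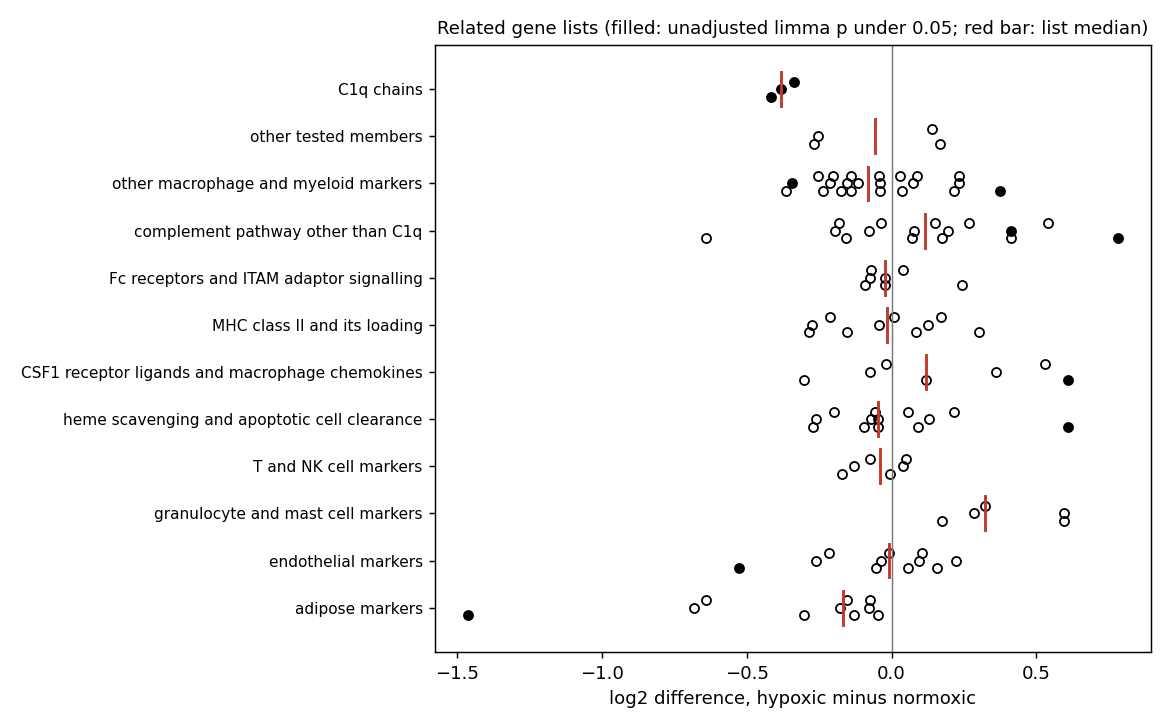
Log2 difference, hypoxic minus normoxic (horizontal axis), of each tested gene of the related lists (vertical axis) at its brightest probe set. Filled points have an unadjusted limma p under 0.05 and red bars are list medians. The C1q chains lie between -0.42 and -0.34, the list of other macrophage markers has a median of -0.08 and the rest of the complement pathway one of 0.11.

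Of 16 tested genes of the rest of the complement pathway, 6 were lower and 10 higher in hypoxic glands. The median log2 difference was 0.11, and 0 passed an adjusted p of 0.05 in limma while 2 were higher and 0 lower at an unadjusted p under 0.05, where named genes as a whole had 4.47% higher and 4.09% lower. C1r, which encodes a serine protease that binds C1q, had 1365.8, 881.4, 718.9 and 1246.7 in hypoxic pools, against 878.6, 509.6, 409.7 and 641.5 in normoxic pools. The groups overlapped only in that hypoxic pool 3 stood below normoxic pool 1, and the log2 difference was 0.78 (SE 0.24, interval 0.26 to 1.30, unadjusted p = 0.00648, adjusted p = 0.327). C1s, its partner protease, named after its values were seen, averaged 308.1 in hypoxic and 274.1 in normoxic pools with a log2 difference of 0.19 (adjusted p = 0.851). The difference was 0.41 for C8b, a chain of the membrane attack complex (adjusted p = 0.532), and 0.41 for the central component C3 (adjusted p = 0.662), each on a dim probe set. It was 0.27 for Clu, an extracellular chaperone that restrains that complex (adjusted p = 0.631).

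Of 7 tested genes for antibody receptors and their signalling, 5 had lower and 2 had higher values in hypoxic glands, the median log2 difference being -0.02, and by limma 0 had an unadjusted p under 0.05. Fcgr3a, an activating antibody receptor, differed by 0.24 and Fcgrt, the neonatal antibody receptor, by -0.07. The kinase gene Lyn differed by -0.09, with a sign that turned without normoxic pool 3 (0.12), and the phosphatase gene Inpp5d by -0.07, turning likewise without that pool (0.01). For class II presentation, in which Cd74 serves, lower and higher values were found for 5 genes each of the 10 tested. Their median was -0.02, and by limma 0 had an unadjusted p under 0.05. The class II alpha chain genes went apart, RT1-Da at -0.27 and RT1-Ba at 0.30. RT1-Ba was dim, and its 79 in normoxic pool 2 lay within the range of the bacterial controls. Among the genes that process antigen Ifi30 differed by 0.17 and Ctss by -0.21.

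Of 7 tested genes, for the CSF1R ligand CSF1, chemokines and the chemokine receptor CXCR4, 3 were lower and 4 higher with a median of 0.12. At an unadjusted limma p under 0.05, 1 was higher and 0 lower, beside 4.47% and 4.09% of named genes. Cxcr4 differed by -0.08 at its brightest probe set. Its dimmer probe sets differed by -0.22 (limma unadjusted p = 0.0452, adjusted p = 0.560) and -0.18. Cx3cl1, the membrane-bound chemokine read by the macrophage receptor CX3CR1, had 359.8, 387.9, 592.5 and 548.4 in hypoxic pools, against 413.3, 233.0, 245.9 and 327.0 in normoxic pools. Normoxic pool 1 stood apart from the other normoxic pools by overlapping the hypoxic values, and the log2 difference was 0.61 (SE 0.20, limma unadjusted p = 0.0111, adjusted p = 0.396). Csf1, the growth factor itself, averaged 238.9 ± 42.8 in hypoxic and 297.6 ± 42.2 in normoxic pools, a log2 difference of -0.30 (adjusted p = 0.631). The chemokine gene Ccl3 differed by 0.36, and Ccl2 by 0.53, turning to -0.12 without normoxic pool 2. In that pool Ccl2 had 13.9, within the range of the bacterial controls. Its mean intensities were close, at 159.6 in hypoxic and 148.6 in normoxic pools. Ccl3 reached the same range in normoxic pool 3 (78.6).

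Macrophages also clear heme and dying cells, and 8 of 13 tested genes of that list were lower and 5 higher (median -0.05). Hpx, which encodes the heme carrier hemopexin, had 235.4, 212.1, 285.3 and 235.5 in hypoxic pools, against 117.0, 151.3, 201.0 and 150.0 in normoxic pools. Its groups did not overlap, and the log2 difference was 0.61 (SE 0.17, interval 0.25 to 0.97, limma unadjusted p = 0.00319, adjusted p = 0.247). The clearance receptor gene Tyro3 differed by -0.27, the iron exporter gene Slc40a1 by -0.26 and Cd93 by 0.22, though a dimmer probe set of Cd93 differed by -0.10.

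Markers of other cell types that a gland can hold were read in the same way. Of 6 tested T and NK cell genes 4 were lower and 2 higher (median -0.04), among them Cd247 at -0.17, Cd3g at -0.13, Lck at -0.07 and Il2rg at 0.04. Cd3e, which defines T cells, had 19.3 to 35 in hypoxic and 4.7 to 43.6 in normoxic pools, within the range of the bacterial controls. Cd79b, the B cell gene with a probe set, lay in that range too, at 7.8 to 16 in hypoxic and 4.6 to 10.7 in normoxic pools. Of 16 granulocyte and mast cell genes with a probe set, 5 were bright enough to be tested. All 5 were higher in hypoxic pools, where 52.5% of all named genes were lower. Tpsb2 passed the signal filter only with both hypoxic pool 2 (247.6) and hypoxic pool 3 (249.3) in the fit. Its place in this count therefore leans on its high hypoxic values. By limma 0 of the 5 had an unadjusted p under 0.05. The differences were 0.29 for Lcn2, 0.32 for Hdc, 0.60 for S100a9 and 0.60 for Tpsb2. That of Tpsb2 turned to -0.12 with the Gapdh covariate given further on. Several pools of S100a9 (from 51.4) and Tpsb2 (from 40.5) lay within the range of the bacterial controls. With 1 pool left out S100a9 ran from 0.35 to 0.83. Tpsb2 ran from 0.33 to 1.03 over the 6 fits in which it was bright enough to be tested. Those fits all kept hypoxic pools 2 and 3. The summed intensity of the list over 17 probe sets was 1082.8 to 1590.6 in hypoxic and 897.9 to 1237.0 in normoxic pools.

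Among 11 endothelial genes, 6 were lower and 5 higher (median -0.01), and at an unadjusted p under 0.05 in limma 1 was lower and 0 higher, beside 4.09% and 4.47% of named genes. The lower one was Pecam1, an adhesion molecule of endothelium that leukocytes carry as well, with 173.0, 208.2, 174.0 and 227.3 in hypoxic pools, against 290.3, 317.7, 240.8 and 304.9 in normoxic pools. The groups did not overlap, and the log2 difference was -0.53 (SE 0.14, limma unadjusted p = 0.00270, adjusted p = 0.238). The vessel genes Plvap and Emcn differed by -0.26 and -0.22, and Eng by 0.22. For Flt1, a receptor for vascular growth factors, the brightest probe set differed by 0.16 and a further one by 0.47 (limma unadjusted p = 0.0262, adjusted p = 0.503).

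Chromaffin and red cell markers averaged higher in hypoxic glands. All 11 tested medulla genes were higher at their brightest probe set (median 0.25), where 52.5% of named genes were lower. Of them 6 had an unadjusted limma p under 0.05, beside 4.47% of named genes higher at that level. A dimmer probe set of Ddc, 1 of these 6, differed by -0.06. Slc18a2, the vesicular monoamine transporter gene, passed the adjusted threshold at its brightest probe set (log2 difference 0.98, adjusted p = 0.0318). Its dimmer probe set differed by 0.61 and did not pass (limma adjusted p = 0.399). The call was lost with no filter, no variance trend or the Gapdh covariate, where 0 probe sets passed. It was also lost without hypoxic pool 2 or 3, or normoxic pool 1, 2 or 3, for the same reason. Of 4 tested erythroid genes 4 were higher at their brightest probe set (median 0.33). At an unadjusted limma p under 0.05 there were 2 of them, Alas2 and Slc4a1, beside 4.47% of named genes higher. A dimmer probe set of Slc4a1 differed by -0.04 (limma unadjusted p = 0.878). The part of these markers in the C1q differences was not tested.

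Fat tissue around the gland also holds macrophages, and its markers averaged lower in hypoxic glands. The 10 tested adipose genes all did so, beside 52.5% of named genes, and their median was -0.17. Ucp1 differed by -1.46 (limma unadjusted p = 0.0258, adjusted p = 0.502), Cidea by -0.68, Cfd by -0.64 and Lipe by -0.18. Ucp1 had 510.7, 92.3, 359.8 and 386.1 in hypoxic pools, against 1675.2, 388.8, 381.2 and 1820.3 in normoxic pools, so that normoxic pools 1 and 4 stood above all the others while normoxic pools 2 and 3 lay among the hypoxic values. With 1 pool left out Ucp1 ran from -1.82 to -0.97, Cidea from -1.05 to -0.31, Cfd from -0.94 to -0.29 and Lipe from -0.40 to 0.15. The summed intensity of the 12 adipose probe sets ran from 5839.5 to 12024.8 in hypoxic and from 5834.0 to 15987.9 in normoxic pools, and 0 of these values were 0. The mean log2 value of the 10 adipose genes was 9.17 ± 0.50 in hypoxic and 9.55 ± 0.66 in normoxic pools (SD). An exact permutation test of these means gave p = 0.4 (two-sided). With the mean of the adipose markers as a covariate in limma, C1qa differed by -0.42, C1qb by -0.35 and C1qc by -0.37, Tyrobp by -0.14 and Cd68 by -0.26.

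RNA integrity was read from the 5′ over 3′ signal ratio of Gapdh, at 0.609 ± 0.0423 in hypoxic and 0.664 ± 0.0646 in normoxic pools (SD, n = 4 each, exact permutation p = 0.2, two-sided, where 0.0286 is the smallest possible). With this ratio as a covariate in limma, C1qa differed by -0.35 (unadjusted p = 0.0327), C1qb by -0.33 (0.0907), C1qc by -0.37 (0.0272), Cd68 by -0.15 and Tyrobp by -0.23. The same ratio of actin was 0.495 ± 0.190 in hypoxic and 0.607 ± 0.143 in normoxic pools (exact permutation p = 0.4, two-sided, n = 4 each), with hypoxic pool 1 the lowest at 0.249, and its part in the differences was not tested.

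The genes whose levels over the 8 pools were most like the mean of the C1q chains were ranked among 8004 other named genes, as a description that holds the group difference in it. The highest Pearson r was that of Ube2c, a ubiquitin-conjugating enzyme of mitosis (r = 0.97, and 0.86 within groups). It was followed by Syncrip-ps2 (0.95), the small GTPase gene Rap2a (0.94), the lysosomal sialic acid transporter gene Slc17a5 (0.94), the gamma-secretase subunit gene Aph1a (0.93), the mRNA cap methyltransferase gene Rnmt (0.93), Pnlip (0.92) and Susd3 (0.92). These genes averaged lower in hypoxic pools, by -0.25 to -0.52 on the log2 scale, and 0 of them passed an adjusted p of 0.05 in limma, the lowest being 0.0941 for Susd3. Within groups r ran from 0.67 for Susd3 to 0.93 for Pnlip, so the order of the 8 genes differed there. How many values this high 8004 genes over 8 pools give by chance was not tested. None of these 8 genes belonged to the macrophage list. Among the other tested members, Cd68 had r = 0.78 and Tyrobp r = 0.61 with the C1q chains, while Cd74 had r = -0.44 and Csf1r r = -0.45.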

How the data were processed

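Per the labels' protocols, total RNA of each pool was made into biotin-labelled cRNA. The authors deposited 1 linear intensity per probe set for each of 8 arrays, with software and genome build not given in the sources used here. Their values have a common mean on every array once 2% is trimmed at each end (500.1), which hides a change shared by most transcripts, and the table gives no detection calls. No pair of arrays had exactly the same deposited value at more than 0.303% of probe sets.

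Control probe sets (57) were left out. Intensities, raised to at least 1, were put on the log2 scale after adding 16, which understates changes of dim probe sets. Array medians lay within 0.117 log2 (limit 0.2), so no further normalization was done. Probe sets averaging under 95.2, the 30th percentile, were dropped. The comparison of hypoxic with normoxic pools used limma 3.58.1 (eBayes with a variance trend, two-sided) in R 4.3.3, with Benjamini-Hochberg adjustment over 11106 probe sets and a threshold of 0.05. The steps were tested on simulated data. Plots were drawn with matplotlib 3.10.9. Symbols came from the platform annotation, with 12783 probe sets of 1 symbol, 312 of several and 2771 of none; promoters came from RefSeq. A listed gene stood at its brightest tested probe set, and up to 4 genes of a list with the lowest p were named, as were the 8 genes most like C1q. Ctss, Lgmn, Cfd and Cd36 stand in more than 1 list. The number of arrays limits the precision. The members and lists were chosen with earlier results of these data known.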

Additional observations from a re-analysis of the deposited data

Results flagged for a closer look

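In 4 of 116 groups of pools tested for the genes named, 1 pool lay far from the others relative to the range of its group, where chance gives about 1 in 20 (Dixon's test). For C1qc, normoxic pool 2 had 502.1 while the other normoxic pools had 415.5 to 421.6, and without it the log2 difference was -0.27 (limma unadjusted p = 0.0586). For Tyro3, normoxic pool 4 had 130.3 against 151.8 to 155.9 in the others. For the T cell gene Cd3g, hypoxic pool 4 had 77.3 against 141.0 to 150.1. For Il2rg, hypoxic pool 1 had 150.7 against 192.5 to 199.3.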

How the results depend on the processing

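All 126 recomputed differences of the 7 tested members, over 8 fits leaving out 1 pool and 10 other settings, kept their sign. Changing the filter, dropping the variance trend, blocking on replicate number or averaging a gene's probe sets left these differences the same by design. Their signs in those settings were therefore fixed in advance. Of the 126, 0 passed an adjusted p of 0.05 in limma, with a smallest adjusted p for any member of 0.268. The members lower at an unadjusted p under 0.05 numbered 3, and 2 to 4 when a pool was left out. They were 4 with no filter on dim probe sets, which brought in the dim Ptprc probe set 1370603_a_at (log2 -0.63, unadjusted p = 0.0473), and 2 with the Gapdh or the adipose covariate. Over all probe sets the 20 calls became 0 with no filter, 0 with no variance trend, 0 with the Gapdh covariate and 9 with the adipose covariate; the cause was not tested. They ran from 0 to 31 when a pool was left out: 31 without hypoxic pool 1, 2 without hypoxic pool 4, 1 without normoxic pool 4 and 0 without each of the others. Among the other named genes, Lyn (0.083) and Tpsb2 (-0.12) turned in sign with the Gapdh covariate and Il2rg (-0.00040) with the adipose covariate. With a pool left out, Lyn ran from -0.25 to 0.12, Inpp5d from -0.15 to 0.014, Ccl2 from -0.12 to 1.07, Cd3g from -0.21 to 0.067 and Lipe from -0.40 to 0.15. Pools share replicate numbers, but same-numbered pools did not deviate together throughout (correlations from -0.0434 to 0.323), so the numbers are not taken as pairs; with the number as a block there were 18 calls, 0 of them members. Of the genes recomputed with this block, only C1r moved across the threshold (log2 0.78, limma adjusted p = 0.0371). Its adjusted p was 0.327 without the block and 0.213 to 0.614 in the other alternatives. C1s and the medulla and erythroid genes, Slc18a2 among them, were not recomputed one by one.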
